A study of Mus musculus with 6 samples.

Results

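The 40 genes described here copy DNA in S phase or divide the chromosomes in mitosis. They were chosen by name for these known roles, but with earlier results of these data known, and each symbol was matched to 1 Ensembl gene ID. They are 40 of the 51912 genes listed in each table, and all 40 were among the 13644 genes that passed the low-count filter. Between the 2 libraries of each group the genes moved together: the mitosis genes were a median 17.2-fold higher in one SPF library than in the other, 2.66-fold between the GF libraries and 2.13-fold between the AF libraries. Between SPF, GF and AF, none of the 40 genes passed an adjusted p below 0.05. The origin licensing genes Cdc6 and Cdt1, the helicase gene Gins2, the ribonucleotide reductase gene Rrm2 and the cyclin gene Ccne1 did not share the common set of high libraries, and the sliding clamp gene Pcna shared it with small ratios. For Gins2, 67.3% of the exonic bases lie over exons of Gse1 on the opposite strand, where reads cannot be told apart.

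The libraries were made from the RNA of small intestinal epithelium, sorted from C57BL/6 mice under 3 conditions of housing and food, with 2 libraries per condition. Specific pathogen free (SPF) mice lacked particular pathogens only, and gave the libraries numbered 3 and 4. Germ free (GF) mice lived without a microbiota and gave libraries 1 and 3. For antigen free (AF) mice, with libraries 2 and 3, the foreign antigens of microbes and of food were both absent. The labels give no age, sex or number of mice per library and do not say that libraries came from separate mice, so p-values measure the spread between these libraries, which may be technical. GF and AF share the absence of a microbiota, and the AF group differs from SPF in both microbes and food.

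The libraries held 16109488 to 19417054 expected counts, and 1 count was worth 0.0365 to 0.0785 CPM, the count scaled to library size with edgeR's TMM factors. All 9 epithelial markers, Epcam and Cdh1 among them, were detected in every library, at a summed 6695 to 8035 CPM. Genes of the mitochondrial genome took 17.9 to 35.3% of the counts. Y-linked genes had 0 counts in both SPF libraries and 760 to 1692 in the others, so the sex of the mice and the housing cannot be told apart in a comparison with SPF. The 40 genes together took 0.0143 to 0.1% of a library's counts.

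Origins of replication are licensed before S phase when Cdc6 and Cdt1 load the Mcm2 to Mcm7 ring, which Cdc45 and the GINS complex later turn into the active helicase. E2F factors drive many of these genes at the start of S phase, whereas genes of mitosis are held down by the DREAM complex and switched on later by B-Myb and Foxm1. In the small intestine, cells divide in the crypts, where stem cells and their transit-amplifying daughters lie, and stop as they move onto the villus. Enterocytes of the villus no longer divide.

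The genes were set in role groups: 10 of licensing and the helicase, 6 of the fork and nucleotide supply, 6 cyclins and their partners, 8 mitotic kinases and checkpoint genes, and 10 of chromosomes and the spindle. The first 16 of these and Ccne1 are called the 17 S phase genes below, and the other 23 the mitosis genes.

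What the promoters of the genes share was read from RefSeq's promoter windows, from 250 bases before to 50 after each annotated start on GRCm38.p6. The table held 36 windows for 33 of the 40 genes, and none for Mcm4, Gins2, Ccna2, Foxm1, Aurkb, Kif20a and Tpx2. Searched on both strands were TTTGAA and TTTAAA, known as the cell cycle homology region to which the DREAM complex binds, CCAAT, the box of the factor NF-Y, and the E2F words TTTCCCGC, TTTGGCGC, TTTCGCGC and TTTGCCGC. TTTAAA reads the same on both strands, the E2F words overlap each other in places, and neither TTTGAA nor CCAAT contains another of the words. TTTGAA was present in 14 of 19 windows of mitosis genes (73.7%) and 2 of 17 windows of S phase genes (11.8%), against 17.9% of all 32851 windows in the table. The E2F words went the other way: they were in 7 of 17 windows of S phase genes (41.2%) and 1 of 19 of mitosis genes (5.3%), against 2.3% of all windows. CCAAT was common to both, in 89.5% of the mitosis windows and 70.6% of the S phase windows against 37.4% of all. TTTAAA was in 36.8 and 23.5% against 13.2%. The members' windows were richer in G and C, with a median of 58.5% against 52.7%, and over all windows within the members' range of GC content the shares were 16.4% for TTTGAA, 37.8% for CCAAT and 2.4% for the E2F words. A word found is a description of the sequence and not a measured binding site.

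Ube2c, Cdk1 and Top2a show the words of the mitosis genes and Mcm6 those of the S phase genes, and they are printed here as examples. They are the members of highest mean TPM in their class with both TTTGAA and a CCAAT box, or with an E2F word, in the stretch shown. A window of Mcm7 that lay within annotated exons was left out. Each line runs from 250 to 6 bases before the annotated start, 5′ to 3′ on the gene's strand. Capitals mark the words TTTGAA, the NF-Y boxes and the E2F words named above, on either strand. The windows are chr2:164769679-164769923 (plus strand, Ube2c), chr10:69352918-69353162 (minus strand, Cdk1), chr11:99024195-99024439 (minus strand, Top2a) and chr1:128359711-128359955 (minus strand, Mcm6), and GENCODE annotates 26 bases of the Ube2c window and 21 of the Cdk1 window as exon.

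Ube2c: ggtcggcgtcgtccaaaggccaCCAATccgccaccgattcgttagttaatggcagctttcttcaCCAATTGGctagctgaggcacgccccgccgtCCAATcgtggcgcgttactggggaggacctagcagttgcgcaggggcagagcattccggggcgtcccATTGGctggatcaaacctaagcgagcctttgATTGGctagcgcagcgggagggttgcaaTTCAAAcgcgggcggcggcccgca
Cdk1: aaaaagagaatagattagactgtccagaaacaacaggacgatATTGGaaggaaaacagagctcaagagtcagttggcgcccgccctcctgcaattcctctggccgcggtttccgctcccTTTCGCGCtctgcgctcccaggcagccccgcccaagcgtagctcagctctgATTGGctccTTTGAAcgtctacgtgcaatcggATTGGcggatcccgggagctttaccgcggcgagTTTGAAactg
Top2a: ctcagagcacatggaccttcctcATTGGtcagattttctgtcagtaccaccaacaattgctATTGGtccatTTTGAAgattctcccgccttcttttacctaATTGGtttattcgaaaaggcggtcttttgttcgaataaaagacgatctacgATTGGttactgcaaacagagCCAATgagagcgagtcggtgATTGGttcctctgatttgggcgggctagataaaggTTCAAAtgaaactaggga
Mcm6: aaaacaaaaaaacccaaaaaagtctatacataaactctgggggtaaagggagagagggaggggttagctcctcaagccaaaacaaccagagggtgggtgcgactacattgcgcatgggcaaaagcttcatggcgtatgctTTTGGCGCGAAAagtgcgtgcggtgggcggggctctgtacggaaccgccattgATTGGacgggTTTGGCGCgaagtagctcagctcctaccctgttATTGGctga

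In Ube2c a TTTGAA on the reverse strand began 29 bases before the start, with the nearest CCAAT box at 57 bases. Cdk1 held TTTGAA at 71 and at 15 bases before the start, CCAAT boxes at 208, 80 and 48, and the only E2F word among the mitosis windows, at 131. Top2a held TTTGAA at 179 and, on the reverse strand, at 23, with 6 CCAAT boxes, the nearest at 58. In Mcm6, E2F words at 110 and 106 overlapped and another stood at 47, with CCAAT boxes at 57 and 14, and TTTGAA was not in the window. A CCAAT box lay 20 to 40 bases upstream of TTTGAA in 9 of the 14 mitosis windows with TTTGAA (64.3%), among them those of Ccnb2, Cdc20, Kif11, Mki67 and Prc1, against 5% of all windows with TTTGAA. The 9 windows belong to 8 genes, since the 2 windows of Prc1 overlap and hold the same words. That spacing was chosen after the windows had been seen.

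The widest spread in the levels lay between libraries of the same group. Mki67 (ENSMUSG00000031004, chromosome 7, 135689784 to 135716361 on GRCm38, minus strand), which encodes the surface coat protein of mitotic chromosomes used to mark dividing cells, was at 85.1 and 6.24 CPM in SPF replicates 3 and 4, 78.2 and 30.3 in GF replicates 1 and 3, and 33.7 and 67.5 in AF replicates 2 and 3. Top2a, the topoisomerase that untangles sister DNA, was at 56.5 and 3.29 CPM in SPF replicates 3 and 4, 48.3 and 21.4 in GF replicates 1 and 3, and 20.97 and 47.9 in AF replicates 2 and 3. SPF replicate 3, GF replicate 1 and AF replicate 3 were high for both genes, GF replicate 3 and AF replicate 2 were in between, and SPF replicate 4 was low, so that the groups overlapped. The same 3 libraries were the 3 highest for 35 of the 40 genes, an order that 15.7% of all genes tested shared. SPF replicate 4 was the lowest library for 35 genes, against 34.2% of all genes. In bulk RNA, fewer dividing cells and less of these RNAs per cell cannot be told apart.

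**Figure D1:**
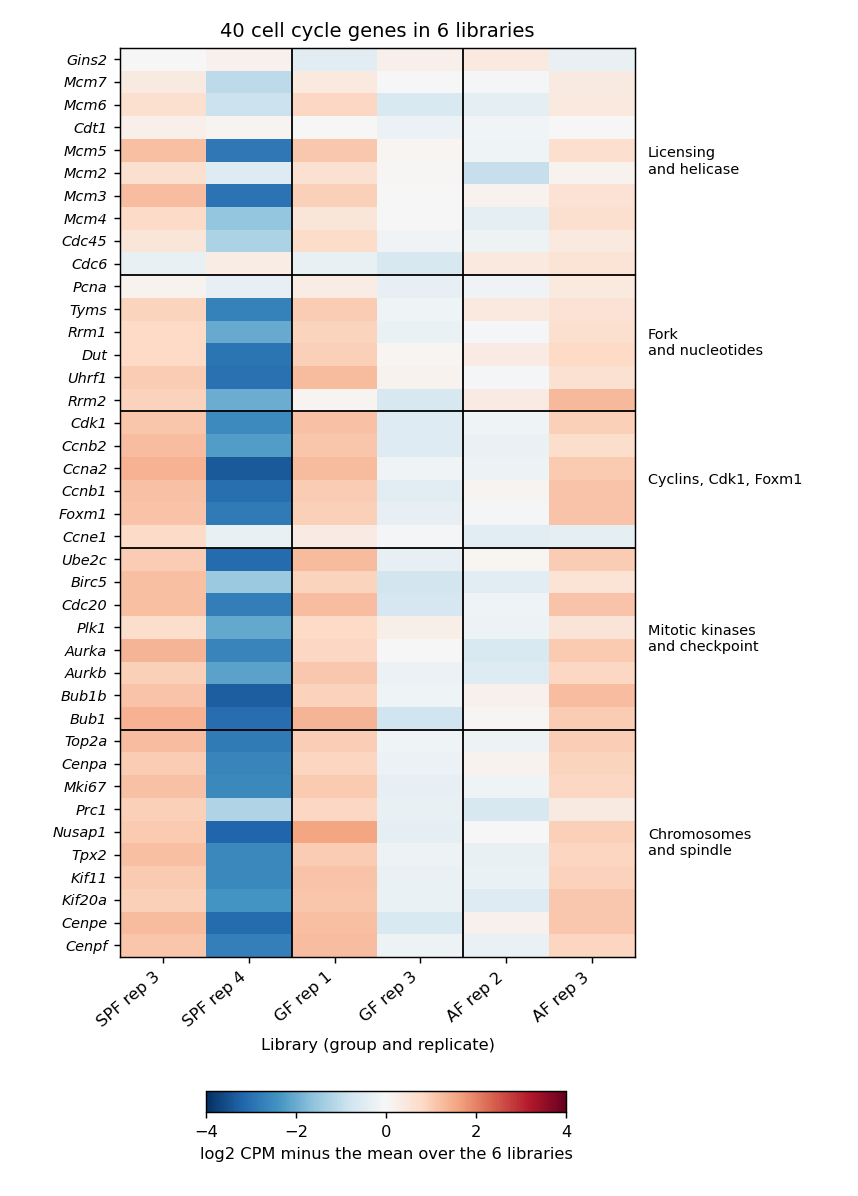
Level of each of the 40 genes (vertical axis, by role group and falling mean TPM) in the 6 libraries (horizontal axis), coloured by log2 CPM minus the gene's mean over the libraries. SPF replicate 4 is dark blue for most genes, while Gins2, Cdt1, Cdc6, Pcna and Ccne1 stay near 0 there.

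The ratio of the 2 libraries of a group gave the size of this pattern, and its direction was set from these levels. SPF replicate 3 exceeded replicate 4 for 38 genes, by a median of 13.7-fold, GF replicate 1 exceeded replicate 3 for 39 genes by 2.25-fold, and AF replicate 3 exceeded replicate 2 for 39 genes by 1.997-fold. The median ratio over all genes was between 0.998 and 1.009 in each pair. A ratio of at least 2 was reached by 36 genes in SPF, where 21.3% of all genes with a count in replicate 4 reached it in the same direction, by 26 in GF (6.34% of all genes) and by 18 in AF (4.99%). A ratio of at least 4 was reached by 31 genes in SPF (10.2%), 1 gene in GF (0.883%) and none in AF (0.724%). The genes that differed most between the SPF libraries also tended to differ most in GF and AF: over the 40 genes, the log2 ratios of SPF and GF had a Pearson's r of 0.74 (Spearman's rho 0.6), SPF and AF 0.64 (0.43), and GF and AF 0.66 (0.51). These are across genes that share libraries, scaling and depth, with no test. They were not computed over all genes, so whether they are particular to the 40 genes is not known.

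**Figure D2:**
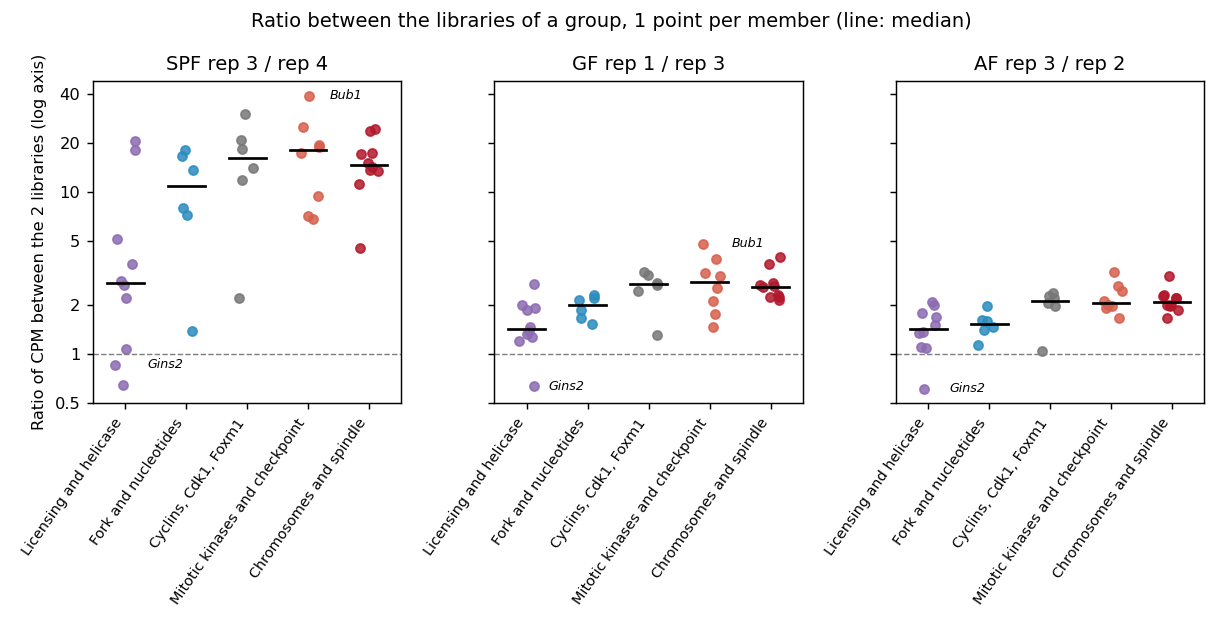
Ratio of CPM between the 2 libraries of each group (log axis) for each gene, 1 point per gene in its role group, with the median as a line; Gins2 lies below 1 in all 3 panels and Bub1 is the highest in SPF and GF. The SPF ratios reach 39.1, the GF ratios 4.802 and the AF ratios 3.21.

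Licensing and helicase genes had the smallest median SPF ratio of the role groups, 2.76, against 10.8 for the fork and 14.6 to 18.04 for the other groups. Gins2 (ENSMUSG00000031821, chromosome 8, 120578633 to 120589304, minus strand), a subunit of the GINS complex, was at 39.2 and 45.3 CPM in SPF replicates 3 and 4, 28.9 and 45.5 in GF replicates 1 and 3, and 52.7 and 32.5 in AF replicates 2 and 3. It was the only gene of the 40 that was lower in the high library of every group, at 0.866, 0.637 and 0.617 of the other library. The annotation places 2758 of its 4097 exonic bases (67.3%) over exons of Gse1 on the opposite strand, and the sources used here do not give the strand setting, so reads of these 2 genes cannot be told apart there. Gse1 was at 46.8 and 59.1 CPM in SPF, 37.1 and 57.4 in GF and 45.2 and 40.2 in AF, and was thus higher in the same library of each group as Gins2. Its part in the Gins2 values was not tested. Of the other GINS subunits, Gins1 was at 2.61 and 0.755 CPM in SPF and Gins3 at 1.28 and 0.617, both lower in replicate 4. Gins4 was at 5.40 and 5.62 CPM in SPF and, unlike Gins2, was higher in GF replicate 1 (7.62) than in replicate 3 (5.90) and in AF replicate 3 (6.83) than in replicate 2 (6.21).

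Cdc6 (ENSMUSG00000017499, chromosome 11, 98907801 to 98923940, plus strand), the ATPase that loads the Mcm ring, was at 3.85 and 5.90 CPM in SPF replicates 3 and 4, 3.83 and 2.98 in GF replicates 1 and 3, and 6.28 and 7.01 in AF replicates 2 and 3. In SPF it was higher in replicate 4, the library that was low for most other members, and the ratio of replicate 3 to replicate 4 was 0.652 (95% counting interval 0.477 to 0.891). Cdt1 (ENSMUSG00000006585, chromosome 8, 122568015 to 122573554, plus strand), its partner in loading, was nearly even at 15.1 and 13.9 CPM in SPF replicates 3 and 4, 13.1 and 10.9 in GF replicates 1 and 3, and 12.02 and 13.1 in AF replicates 2 and 3. Such intervals, from the exact binomial split of the counts of 2 libraries, cover counting error only.

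The 6 Mcm genes encode equal parts of 1 ring but did not keep 1 ratio. Mcm7 was at 25.6 and 9.60 CPM in SPF replicates 3 and 4, 25.9 and 19.5 in GF replicates 1 and 3, and 18.9 and 25.6 in AF replicates 2 and 3, and its SPF ratio was 2.67 (counting interval 2.22 to 3.24). Mcm6 was at 29.3 and 10.3 CPM in SPF replicates 3 and 4, 33.1 and 12.1 in GF replicates 1 and 3, and 14.4 and 24.7 in AF replicates 2 and 3, with a ratio of 2.84 (2.38 to 3.42), and Mcm2 at 19.01 and 8.57 CPM in SPF replicates 3 and 4, 18.6 and 12.6 in GF replicates 1 and 3, and 6.36 and 13.3 in AF replicates 2 and 3, with a ratio of 2.22 (1.81 to 2.73). Mcm4 reached 5.16 (3.70 to 7.36). Mcm5, at 21.2 and 1.17 CPM in SPF, had a ratio of 18.2 (11.2 to 31.4), and Mcm3, at 15.6 and 0.755 CPM, 20.6 (11.4 to 41.7), intervals that do not meet those of the other Mcm genes. In GF and AF the ratios of the 6 genes ran from 1.33 to 2.72 and from 1.35 to 2.09. Mcm3 and Mcm5 were picked out after their values had been seen. Cdc45, which joins the ring to form the helicase, had a SPF ratio of 3.61.

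Among genes of the fork and of nucleotide supply, Pcna stood apart. Pcna (ENSMUSG00000027342, chromosome 2, 132249162 to 132253314, minus strand), the sliding clamp of the DNA polymerases, was at 47.8 and 34.4 CPM in SPF replicates 3 and 4, 53.2 and 34.5 in GF replicates 1 and 3, and 39.1 and 57.6 in AF replicates 2 and 3. Its ratios were 1.39, 1.54 and 1.47 in SPF, GF and AF, about the same in each group. Per length it was the most abundant of the 40 genes, at a mean of 36.9 TPM, the measure scaled to transcript length as well as depth, against 16.3 for Ube2c, the next, and 0.953 for Ccne1, the last. Tyms, the thymidylate synthase, was at 9.39 and 0.686 CPM in SPF replicates 3 and 4, 10.3 and 4.48 in GF replicates 1 and 3, and 6.68 and 7.61 in AF replicates 2 and 3. Rrm1, the large subunit of ribonucleotide reductase, was at 21.9 and 3.02 CPM in SPF replicates 3 and 4, 23.6 and 10.6 in GF replicates 1 and 3, and 12.2 and 19.9 in AF replicates 2 and 3, and Dut, which removes dUTP, at 6.82 and 0.411 CPM in SPF replicates 3 and 4, 7.58 and 4.07 in GF replicates 1 and 3, and 4.87 and 6.83 in AF replicates 2 and 3. For all 3 genes SPF replicate 4 was the lowest of the 6 libraries, with ratios of 13.7, 7.25 and 16.6 in SPF. Uhrf1, the partner of the maintenance DNA methyltransferase, had a ratio of 17.98, and Rrm2, the small subunit of the reductase, 7.92.

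The cyclin genes and their partners, Ccne1 aside, shared the 3 high libraries of Mki67 and the lowest one. Cdk1, the kinase that drives entry into mitosis, was at 13.4 and 0.960 CPM in SPF replicates 3 and 4, 13.96 and 4.34 in GF replicates 1 and 3, and 5.50 and 12.2 in AF replicates 2 and 3. Its B-type partner Ccnb1 was at 14.3 and 0.686 CPM in SPF replicates 3 and 4, 12.7 and 4.61 in GF replicates 1 and 3, and 6.75 and 13.96 in AF replicates 2 and 3, and Ccnb2 at 16.3 and 1.37 CPM in SPF replicates 3 and 4, 14.9 and 4.82 in GF replicates 1 and 3, and 5.66 and 11.3 in AF replicates 2 and 3. Ccna2, the cyclin of S phase and early mitosis, was at 26.8 and 0.892 CPM in SPF replicates 3 and 4, 25.01 and 9.29 in GF replicates 1 and 3, and 8.95 and 21.3 in AF replicates 2 and 3, with a SPF ratio of 30.1. Foxm1, the transcription factor that switches on many of the mitosis genes, was at 11.4 and 0.617 CPM in SPF replicates 3 and 4, 9.88 and 4.003 in GF replicates 1 and 3, and 4.95 and 11.3 in AF replicates 2 and 3. The order among the 3 high libraries differed between these 5 genes. Ccne1, the cyclin of the entry into S phase, had other libraries high and low, at 2.43 and 1.10 CPM in SPF replicates 3 and 4, 1.79 and 1.36 in GF replicates 1 and 3, and 1.02 and 1.07 in AF replicates 2 and 3.

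**Figure D3:**
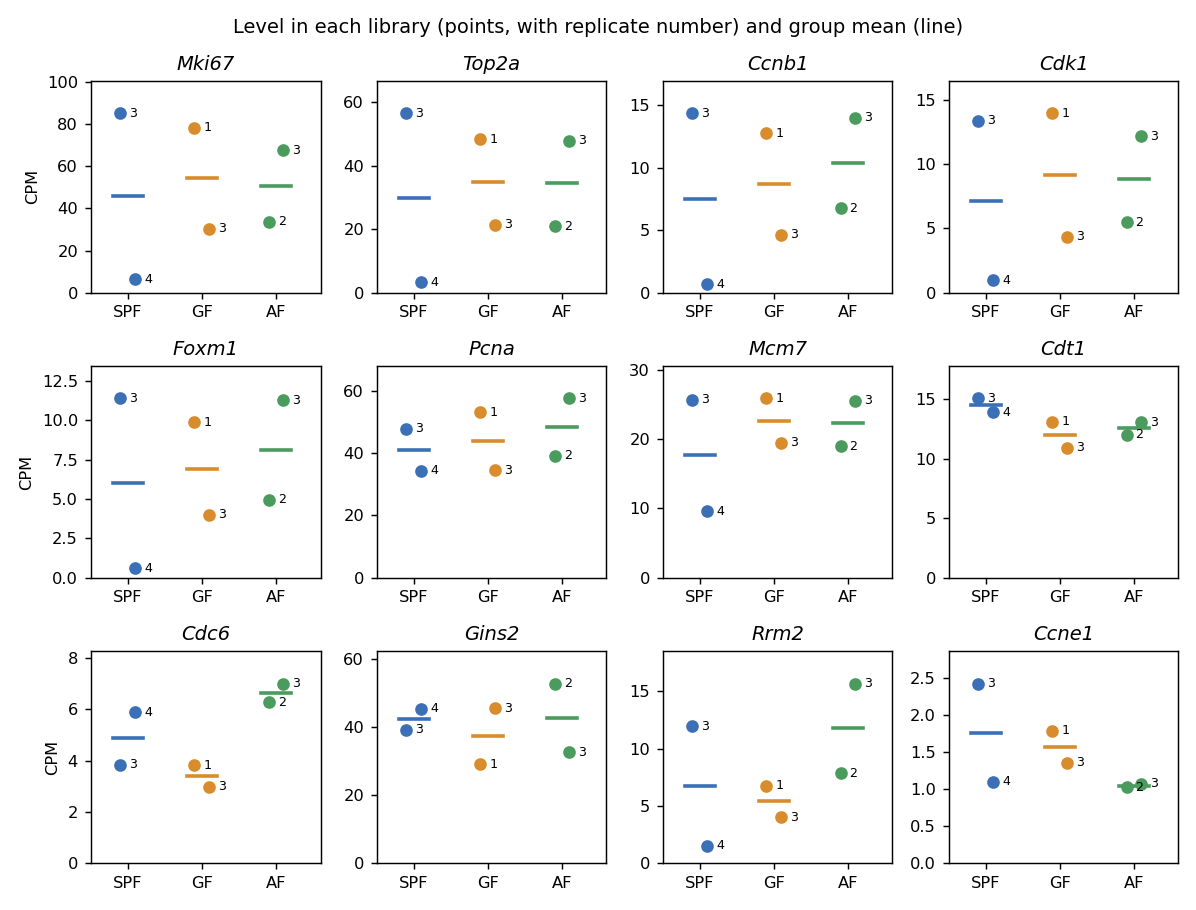
CPM of 12 of the genes in each library (points, numbered by replicate) and the mean of each group (line), with each vertical axis starting at 0. For Mki67, Top2a, Ccnb1, Cdk1 and Foxm1 the SPF points lie further apart than any difference between group means, whereas those of Cdt1 lie close together.

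Mitotic kinases, the ubiquitin machinery of anaphase and the spindle checkpoint held the largest of the 40 SPF ratios. Ube2c, the ubiquitin-conjugating enzyme of the anaphase-promoting complex, was at 15.9 and 0.823 CPM in SPF replicates 3 and 4, 18.9 and 6.17 in GF replicates 1 and 3, and 8.17 and 15.8 in AF replicates 2 and 3. Cdc20, which activates that complex, was at 18.9 and 1.10 CPM in SPF replicates 3 and 4, 19.4 and 5.02 in GF replicates 1 and 3, and 7.30 and 17.9 in AF replicates 2 and 3. Birc5, or survivin, of the chromosomal passenger complex, was at 14.8 and 2.19 CPM in SPF replicates 3 and 4, 11.96 and 3.80 in GF replicates 1 and 3, and 4.63 and 9.39 in AF replicates 2 and 3, and Plk1, a kinase of mitotic entry and exit, at 17.5 and 2.47 CPM in SPF replicates 3 and 4, 18.5 and 12.6 in GF replicates 1 and 3, and 9.11 and 15.2 in AF replicates 2 and 3. SPF replicate 4 was lowest for all 4, with the smallest SPF ratio for Birc5 (6.76) and the largest for Ube2c (19.4). The checkpoint genes Bub1b and Bub1 had SPF ratios of 25.1 and 39.1, the latter resting on 2 counts in replicate 4 with a counting interval of 10.6 to 326. Aurka and Aurkb, the Aurora kinases of the spindle poles and of the passenger complex, had ratios of 18.8 and 9.46.

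Of the chromosome and spindle genes, Cenpa, the centromeric histone, was at 13.6 and 0.960 CPM in SPF replicates 3 and 4, 12.03 and 5.56 in GF replicates 1 and 3, and 7.30 and 12.3 in AF replicates 2 and 3. Prc1, which bundles the microtubules of the central spindle, was at 15.5 and 3.43 CPM in SPF replicates 3 and 4, 14.4 and 6.45 in GF replicates 1 and 3, and 5.11 and 10.2 in AF replicates 2 and 3, and had the smallest SPF ratio of the 23 mitosis genes (4.51). The kinesins Kif11 and Kif20a, the kinetochore proteins Cenpe and Cenpf, and the spindle proteins Nusap1 and Tpx2 had SPF ratios from 11.2 to 24.2, GF ratios from 2.33 to 3.99 and AF ratios from 1.89 to 3.06. Apart from Gins2, Kif20a shares 29.3% of its exonic bases with Cdc23 on the opposite strand, Ube2c 22.8% with Tnnc2, which had 4 counts in all, and the other members at most 12.5% with a neighbour.

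Mitosis genes thus differed more than S phase genes between the libraries of a group. The median SPF ratio was 17.2 for the 23 mitosis genes and 3.61 for the 17 S phase genes, and all 23 mitosis genes but 8 of the 17 S phase genes reached a ratio of 4. In GF the medians were 2.66 and 1.69, and in AF 2.13 and 1.47. As a level, the median of log2 CPM minus each gene's mean over the 6 libraries was 1.15 in SPF replicate 3 and -2.66 in SPF replicate 4 for mitosis genes, and 0.76 and -1.27 for S phase genes. The gap between the 2 classes was 0.39 and -1.39 in SPF, 0.48 and -0.27 in GF and -0.13 and 0.41 in AF, negative in the 3 libraries with low levels and positive in the 3 with high levels. With TPM the gap had the same sign in each library. Median-of-ratios scaling and library totals alone move both classes of a library nearly alike. Their same signs were thus given in advance and are no separate check. S phase genes are those whose promoter windows more often held the E2F words, and mitosis genes those with TTTGAA, as printed above. Whether these words bear on the levels was not tested. No test was made of the 2 classes, since the genes share their libraries.

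Most markers of the crypt varied with the 40 genes. Rnf43 went the other way in every group, at 31.5 and 64.8 CPM in SPF, and Ascl2, Axin2 and Sox9 did so in AF alone. The 14 crypt stem cell markers, all 14 past the filter, summed to 484 and 130.2 CPM in SPF, 608 and 286 in GF and 266.5 and 338.5 in AF. Their median centred log2 level was 0.62, -2.29, 1.25, -0.07, 0.14 and 0.48 in the order SPF 3, SPF 4, GF 1, GF 3, AF 2 and AF 3. Lgr5, the stem cell receptor of R-spondin, was at 4.31 and 0.0686 CPM in SPF, the latter being 1 count, and Ascl2 and Tnfrsf19 were at 0 in SPF replicate 4. The 11 Paneth cell markers, which are expressed at the crypt base by cells that do not divide, summed to 1600 and 45.1 CPM in SPF, 6238 and 1039 in GF and 1147 and 2360 in AF. The 9 goblet cell markers summed to 29200 and 2809 CPM in SPF, 11940 and 16900 in GF and 14040 and 12710 in AF. In GF and AF that sum was lower in the library where the 40 genes were higher. Agr2 (200 and 134.1 CPM) and Spink4 (136.6 and 79.6) in GF, and Spink4 in AF (55.9 and 60.25), went against the sum. The 14 brush border markers of enterocytes summed to 33460 and 68550 CPM in SPF, 24980 and 38060 in GF and 34310 and 25850 in AF. This sum ran against the 40 genes in every group. Exceptions were Sis in GF (1058 and 957.5 CPM) and in AF (1906 and 2028), and Mgam in GF (1056 and 884.3). Anpep was nearly even in GF, at 3671 and 3677 CPM. Mitochondrial shares were 18.1 and 27.2% in SPF, 17.9 and 32.1% in GF and 35.3 and 28.7% in AF, lower in the library of each group in which the 40 genes were higher. The part of these differences in the levels of the 40 genes was not tested.

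**Figure D4:**
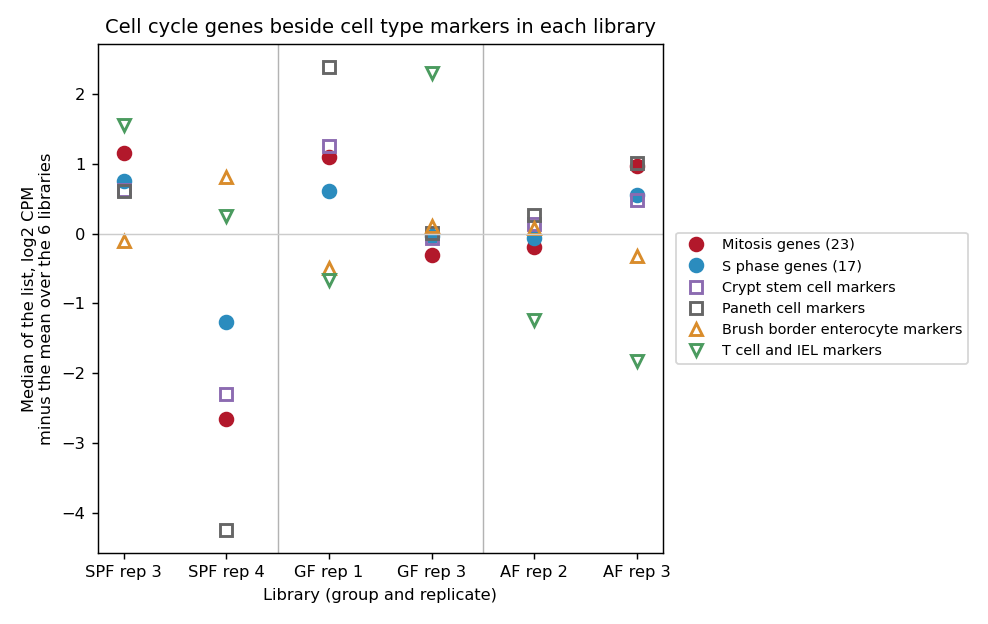
Median over each gene list of log2 CPM minus the gene's mean over the 6 libraries (vertical axis) in each library (horizontal axis). Mitosis and S phase genes (filled points) lie high or low in the same libraries as crypt and Paneth markers (squares), while T cell markers (inverted triangles) are highest in GF replicate 3.

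Markers of immune cells and stroma did not share this order. The 13 markers of T cells and intraepithelial lymphocytes (12 past the filter) summed to 212 and 79.1 CPM in SPF, 38.2 and 360.5 in GF and 19.7 and 15 in AF, so that in GF and AF they were higher in the library where the 40 genes were lower. The 9 B cell and plasma cell markers summed to at most 0.824 CPM, none passed the filter, and Mzb1 was at 0 in every library. Of 10 markers of stroma and endothelium 2 passed, the 10 summed to at most 8.41 CPM, and Kdr was at 0 in every library. The 9 myeloid markers summed to 5.97 to 24.9 CPM.

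The comparison of GF with SPF asks what the absence of a microbiota goes with. No member was called by edgeR's quasi-likelihood test, in which 2 of 13644 genes were called higher (0.0147%) and 0 lower (0%), and no member had an unadjusted p below 0.05, which 3.2% of all genes had as higher and 3.51% as lower. DESeq2, edgeR's likelihood ratio test and limma called none either and put none below that p. The median log2 fold change of the 40 genes was 0.25 with a median SE of 1.07, beside 0.02 over all genes, and 34 of the 40 were above 0, as were 51.8% of all genes. Mki67 was at 45.7 ± 55.8 CPM in SPF and 54.2 ± 33.9 in GF (SD, n = 2), a log2 fold change of 0.25 ± 1.08 (SE). No member was higher in both GF libraries than in both SPF libraries, against 16.8% of all genes. Cdt1 and Cdc6 were lower in both, against 17.1% of all genes, with log2 fold changes of -0.27 ± 0.22 and -0.51 ± 0.37 (SE) and adjusted p-values of 0.817 and 0.798, the smallest among the members.

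That direction rested on SPF replicate 4. Without it, all 40 genes were below 0, with a median of -0.51 and none called or with an unadjusted p below 0.05. Without SPF replicate 3, 37 genes were above 0 with a median of 3.22, 31 had an unadjusted p below 0.05 as higher (18.3% of all genes did), and Uhrf1, Dut and Mcm3 were called, where 2.95% of all genes were. In these fits the lone SPF library is assumed to vary like the other groups. Without GF replicate 1, 35 genes were below 0 (median -0.43). With a score of crypt stem cell and Paneth cell markers as a covariate, 39 genes were below 0, with a median of -0.64. The score comes from the same libraries, at 0.75 and -3.09 in SPF and 1.57 and -0.0024 in GF. It varied with the 40 genes, so this fit cannot separate the groups from the score. In the edgeR fit with the score, 11 genes had an unadjusted p below 0.05 as lower (3.24% of all genes did), but none was called.

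The comparison of AF with GF, both without a microbiota, concerns food. No member was called by edgeR, against 0.00733% of all genes as higher and 0.00733% as lower. The median was -0.08 with a median SE of 1.07 (all genes -0.02), and 28 of the 40 genes were below 0, as were 52.9% of all genes. With library totals alone, where the median of all genes was -0.38, 38 genes were below 0, and with limma on log2(TPM + 1) 35 were. Mki67 was at 50.6 ± 23.9 CPM in AF (SD, n = 2), a log2 fold change of -0.10 ± 1.08 (SE) against GF. In edgeR's test with all 6 libraries, TMM, the low-count filter and no covariate, Cdc6 was the only member with an unadjusted p below 0.05. Of all genes, 1.52% had such a p as higher and 2.07% as lower. With library totals alone no member had it, and with no low-count filter Rrm2 alone did, as higher (1.81% of all genes did). DESeq2 put 1 member and the likelihood ratio test and limma none below that p, and none of them called a member. The mean of Cdc6 was 3.41 ± 0.596 CPM in GF and 6.65 ± 0.515 in AF (SD, n = 2), and both AF libraries lay above both GF libraries. The log2 fold change was 0.96 ± 0.37 (SE), with an unadjusted p of 0.0415 and an adjusted p of 1 from edgeR.

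Cdc6 and Rrm2 were higher in both AF libraries than in both GF libraries, against 15.8% of all genes. Rrm2 was at 11.9 and 1.51 CPM in SPF replicates 3 and 4, 6.74 and 4.003 in GF replicates 1 and 3, and 7.85 and 15.7 in AF replicates 2 and 3, a log2 fold change of 1.13 ± 0.89 (SE). Ccne1 was lower in both, against 17.8% of all genes, at -0.59 ± 0.60. Mcm2 had the second smallest p among the members, with a log2 fold change of -0.67 ± 0.51, and its groups overlapped. The median of the 40 genes was -0.67 without AF replicate 3 and -0.61 without GF replicate 3, but 0.68 without GF replicate 1 and 0.28 without AF replicate 2, with no member called in any of these. With the crypt score as a covariate 34 genes were above 0, with a median of 0.34. In that fit Cdc6, Rrm2, Bub1b, Ccnb1 and Cenpe had an unadjusted p below 0.05 as higher, as did 4.18% of all genes, and none was called.

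AF and SPF differ in both microbes and food. No member was called by edgeR in AF versus SPF, against 0.0293% of all genes as higher and 0.0147% as lower, or had an unadjusted p below 0.05, against 4.76 and 6.52%. Both counts were also 0 with limma, DESeq2 and the likelihood ratio test. The median was 0.22 with a median SE of 1.08 (all genes 0.01), and 32 of the 40 genes were above 0, as were 50.9% of all genes, and 8 below 0, as were 49.1%. With library totals alone, where the median of all genes was -0.20, 13 genes were above 0 and 27 below, and with limma on log2(TPM + 1) 27 were above and 13 below. For Mki67 the log2 fold change was 0.14 ± 1.08 (SE). Cdc6 was higher in both AF libraries than in both SPF libraries, against 22% of all genes, at 0.45 ± 0.37. Ccne1 and Cdt1 were lower in both, against 22.6%, at -0.76 ± 0.60 and -0.21 ± 0.22, and the adjusted p of 0.676 for Ccne1 was the smallest. Without SPF replicate 4, 37 genes were below 0 (median -0.58), and without AF replicate 3, 34 were (median -0.37). With the crypt score as a covariate 35 genes were below 0 (median -0.31). In that fit Mcm2, Birc5 and Prc1 had an unadjusted p below 0.05 as lower, as did 7.97% of all genes, and none was called. Without SPF replicate 3 the median was 3.12, 30 genes had an unadjusted p below 0.05 as higher (17.4% of all genes did), and Dut, Bub1b and Mcm3 were called, where 4.76% of all genes were. The 3 comparisons share their libraries in pairs and are not independent of each other.

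**Figure D5:**
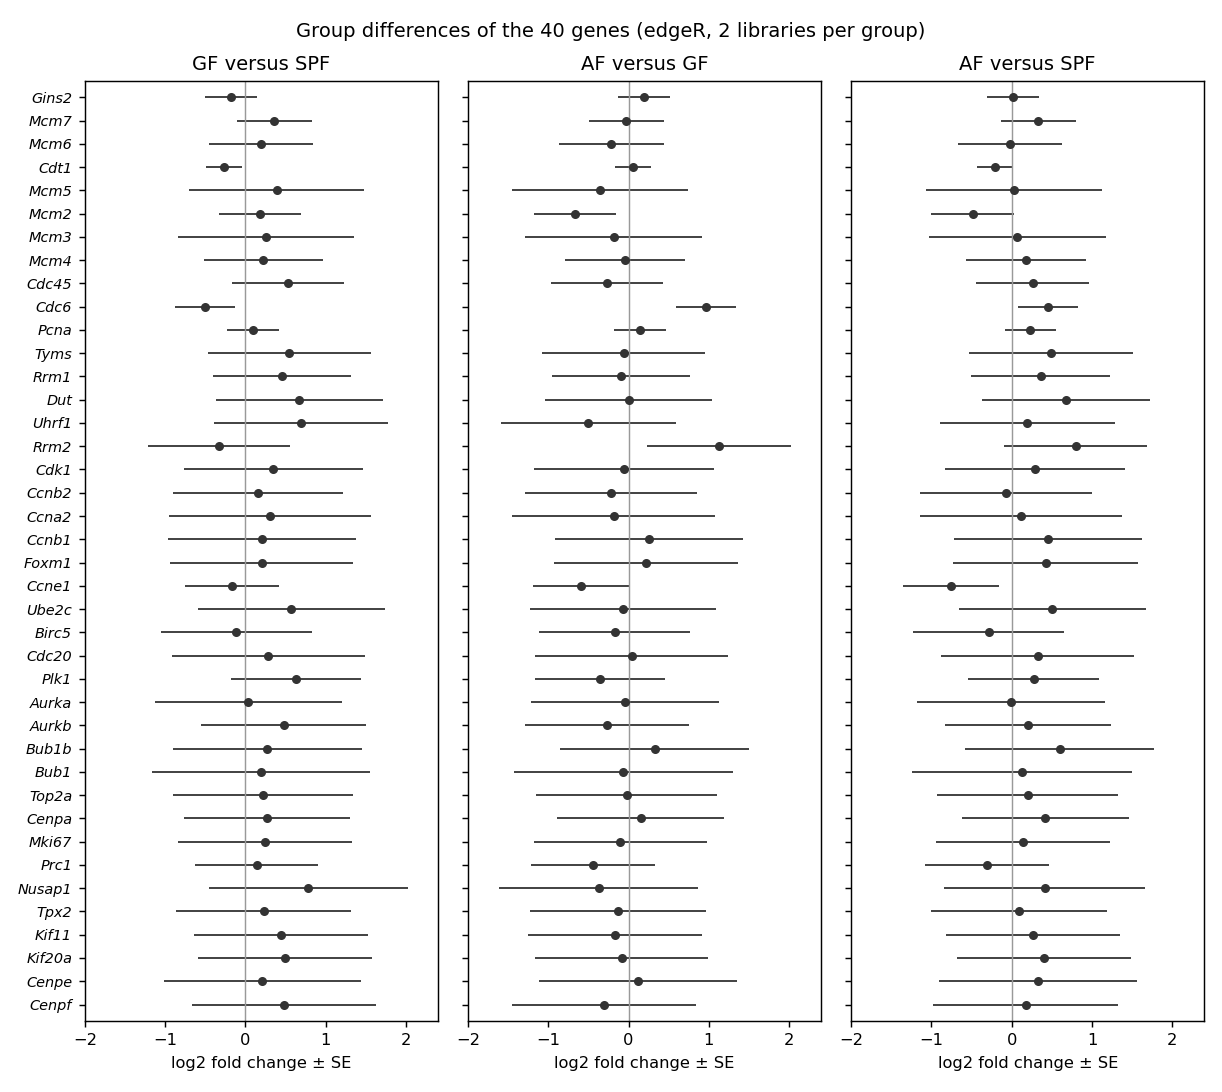
log2 fold change with its standard error (horizontal axis) of the 40 genes (vertical axis) in each of the 3 comparisons, from edgeR with 2 libraries per group. Bars clear of 0 belong to Cdc6 in all 3 panels, Cdt1 in GF versus SPF, Mcm2 and Rrm2 in AF versus GF, and Ccne1 in AF versus SPF.

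Other genes of the same pathways, in lists made with the members already known, were tested in the same fit. Of 201 tested genes, 48 of replication, 78 of mitosis, 29 of the entry into S phase, 18 inhibitors of the cycle and 28 of the response to stalled forks, none was called by edgeR in any of the 3 comparisons. An unadjusted p below 0.05 was reached by none in GF versus SPF, by E2f3 and Cdkn2b in AF versus GF and by E2f3 and Cdc25a in AF versus SPF, each as lower. The median centred log2 level of the other mitosis genes was 0.91 and -2.03 in the SPF libraries, 0.91 and -0.29 in GF and -0.14 and 0.71 in AF, and that of the other replication genes 0.47 and -1.01, 0.47 and -0.15, and -0.06 and 0.38. Both lists thus repeated the order of the members, with the larger range for mitosis. The inhibitors did not as a list: their median stayed between -0.05 and 0.13, while single genes moved in both directions. Cdkn1a was at 133.8 and 197.4 CPM in SPF, 131 and 174.4 in GF and 178.5 and 142.6 in AF, against the members' order. Cdkn2c was at 3.57 and 0.823 CPM in SPF, 4.08 and 1.49 in GF and 2.44 and 4.81 in AF, with that order. Both were named after their values had been seen.

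E2f3, an activating E2F factor, was at 13.6 and 17.7 CPM in SPF, 11.1 and 9.77 in GF and 6.28 and 6.42 in AF, with no overlap between the groups. Its log2 fold change was -1.30 ± 0.26 (SE) in AF versus SPF, with an adjusted p of 0.324 from edgeR's quasi-likelihood test. DESeq2's Wald test (adjusted p 0.0196), edgeR's likelihood ratio test (0.0303) and its quasi-likelihood test with no low-count filter (0.0202) put it past the threshold. They called 2.03, 2.18 and 3.53% of all genes, against 0.044% in the main fit. Median-of-ratios scaling, library totals alone, limma, only the 2 groups compared and the crypt score did not put E2f3 past it. With a library left out, its log2 fold change ran from -1.48 to -1.10. Cdkn2b, an inhibitor of Cdk4 and Cdk6, was at 44.1 and 43.9 CPM in SPF, 54.9 and 44.6 in GF and 33.4 and 30.7 in AF, with a log2 fold change of -0.64 ± 0.19 (SE) in AF versus GF and an adjusted p of 1.

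Of the replication list, Mcm10, which helps to start the fork, had the smallest p in AF versus GF and was at 24.5 and 57.6 CPM in SPF, 21.1 and 37.0 in GF and 59.4 and 53.6 in AF. In each group it was higher in the library where most members were lower, as Gins2 was. Pttg1, or securin, had the smallest p of the mitosis list in that comparison, at 6.55 and 9.53 CPM in SPF, 7.44 and 8.14 in GF and 12.02 and 11.1 in AF. Among the genes with the smallest p of their lists in the remaining comparisons, Orc4, Spag5, Pkmyt1, Atrip, Pold3, Bub3 and Rad1 had log2 fold changes from -0.99 (Atrip, AF versus GF) to 0.96 (Rad1, AF versus SPF).

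Genes of the entry into S phase were mixed between the SPF libraries. The median centred log2 level of the 29 genes was 0.34 and -0.66 in SPF, 0.28 and -0.06 in GF and -0.14 and 0.17 in AF. E2f3, above, and Cdc25a, a phosphatase that activates cyclin-dependent kinases, at 46.2 and 48.5 CPM in SPF, were not lower in SPF replicate 4. Ccnd1, the cyclin D1 gene, was at 42.04 and 2.68 CPM in SPF, 20.2 and 12.4 in GF and 5.97 and 10.9 in AF. Myc, a driver of growth and cycle entry, was at 8.70 and 0.206 CPM in SPF, 9.15 and 4.48 in GF and 4.32 and 4.69 in AF. E2f1, an activator of the S phase genes, was at 2.47 and 0.137 CPM in SPF, the latter being 2 counts, 1.97 and 0.882 in GF and 1.178 and 2.32 in AF. Ccnd1, Myc and E2f1 were named after their values had been seen.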

How the data were processed

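RNA-seq libraries of sorted epithelial cells were grouped by the sample labels as SPF, GF and AF, 2 each. STAR 2.5.2b, RSEM, edgeR 3.16.5 and the builds GRCm38 and mm10 are named in the submitters' processing notes. Not given in the sources used here: RSEM's version, the annotation release, strand. Per the file headers, the authors deposited RSEM's expected counts per gene with no scaling between libraries, TPM values scaled by effective length, and the posterior standard deviation of each count. Expected counts were rounded to whole numbers, since 23.5% were not whole. For the 40 genes the posterior standard deviation, in libraries with at least 10 counts, was at most 13% of the count for Kif20a, 6.27% for Ccna2, 3.84% for Gins2 and 1.81% for the others.

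Of the IDs, 51633 matched a symbol in GENCODE M21 (GRCm38), the source of gene coordinates, which count from 1. Promoter windows are RefSeq's. The test was edgeR 4.0.16 (R 4.3.3): TMM, filterByExpr, glmQLFit and glmQLFTest with all 6 libraries in 1 fit (3 residual degrees of freedom, common biological coefficient of variation 0.368), with Benjamini-Hochberg adjustment over 13644 genes and a threshold of 0.05. Standard errors were taken as |log2 fold change| over √F. CPM are on TMM-scaled totals, with factors of 0.791 to 1.41, and log2 levels use a prior count of 2. A floor of 3 counts corresponds to 0.109 to 0.236 CPM. In any one gene, 2 libraries against 2 cannot give an exact permutation p below 0.333. The fit was run on simulated counts with known changes. Limits for passing were set only at a spread below that of these data, so this run does not show the power here.

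The alternatives were DESeq2 1.42.0, edgeR's likelihood ratio test, scaling by median of ratios or by totals, and all genes with a count kept. Others were limma 3.58.1 on log2(TPM + 1) where 2 libraries had TPM of 1 or more, and only the 2 groups compared. A crypt score as a covariate and each library left out were the last. The crypt score was the mean centred log2 CPM of the crypt stem cell and Paneth cell markers together. It was taken from the same libraries as the members and varied with them, so it is no outside measure. The genes, lists and rule for named genes were chosen with earlier results of these data known. The rule took per role group the 4 genes of highest mean TPM, the 2 with the smallest p per comparison, and Mki67, Pcna, Top2a, Ccnb1, Cdk1 and Foxm1 in any case, and of each other list the gene with the smallest p where none was called, 1 of which is not reported here. The lists were other genes of replication, mitosis, entry into S phase, inhibitors and the response to stalled forks, and markers of crypt stem, Paneth, goblet, enterocyte, epithelial, T, B, myeloid and stromal cells and of dissociation stress, whose median centred log2 level was -0.16 to 0.30.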

Additional observations from a re-analysis of the deposited data

How the results depend on the processing

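The number of members called was 0 in all 3 comparisons with each tool, scaling and filter, and with each library left out it was 0 except without SPF replicate 3: 0 to 3 higher in GF versus SPF and 0 to 3 in AF versus SPF. With a library left out, the median of the members ran from -0.51 to 3.22 in GF versus SPF, from -0.67 to 0.68 in AF versus GF and from -0.58 to 3.12 in AF versus SPF. Called genes of the other cell cycle lists ran from 0 to 4 higher in GF versus SPF (Ccnd2, Myc, Cdc25b and Spc24 without SPF replicate 3), and from 0 to 5 higher and 0 to 1 lower in AF versus SPF. In AF versus SPF DESeq2 called 1 of them lower, as the likelihood ratio test did (1, E2f3 in both), and 2 with no low-count filter (E2f3 and Ccnd1). In AF versus GF 1 was called lower with no low-count filter (Ccnd2). The cause was not tested.

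The direction of Mki67 turned in every comparison. In GF versus SPF it was -0.84 with the crypt score as a covariate and -0.65 to 3.12 with a library left out. In AF versus GF it was 0.40 with the crypt score and -0.72 to 0.74 with a library left out. In AF versus SPF it was -0.24 with library totals alone, -0.44 with the crypt score and -0.75 to 3.02 with a library left out. Cdc6 was -0.0070 in AF versus SPF with limma on log2(TPM + 1), and Atrip ran from -1.60 to 0.16 in AF versus GF with a library left out.

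Over all genes the counts called depended on the tool: 2 higher and 0 lower in GF versus SPF, but 40 and 40 with DESeq2, 53 and 44 with the likelihood ratio test and 279 and 205 with no filter. They were 1 and 1 in AF versus GF (13 and 38, 17 and 36, 91 and 173), and 4 and 2 in AF versus SPF (110 and 162, 135 and 163, 383 and 421). Library totals alone moved the median of all genes to -0.38 in AF versus GF, -0.20 in AF versus SPF and 0.16 in GF versus SPF. No paired analysis was possible because the groups share only the replicate number 3. The median standard error of the members was 1.07 to 1.08 against 0.38 over all genes, so a difference between groups within that error was not detectable. Differences beyond their own standard error could also go uncalled. Cdc6, at 0.96 ± 0.37 (SE) in AF versus GF, was not called.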
